A study of Homo sapiens with 18 samples.

Results

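The BCL2 family was followed through 10 of its genes, BCL2, BCL2L1, MCL1, BAX, BAK1, BBC3, PMAIP1, BCL2L11, BMF and BNIP3, chosen by name and found as 10 rows among the 26372 gene symbols of the deposited expression table. All 10 had a mean of at least 1 FPKM (fragments scaled to transcript length and library depth) and were among the 13785 genes tested. The study measured RNA in SH-SY5Y, an established human neuroblastoma line, after infection with lentivirus carrying ZNHIT3, a zinc-finger protein of small nucleolar ribonucleoprotein assembly. The FUGW-based constructs held wild-type ZNHIT3 (WT), the C14R substitution or a deletion. The deletion, 251-254 in the design text, carried the labels 251-254, 251-255 and 251-256 on replicates 1, 2 and 3, which were taken as 1 group. Each line was sampled at day 0 and after 18 days in serum-free neurobasal medium with B27, KCl at 20 mM, BDNF at 50 ng/ml, all-trans retinoic acid at 10 µM and dibutyryl cyclic AMP at 2 mM, begun 48 hours after infection. There were 3 libraries in each of the 6 groups. Uninfected cells were not analysed here, the FPKM of ZNHIT3 does not separate delivered from endogenous transcripts, and day 18 libraries differed from day 0 libraries in medium and agents as well as in time. No label said that the 3 libraries of a group came from separate cultures, so p-values measure the spread between libraries, which may be technical.

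BCL2 family proteins decide at the outer mitochondrial membrane whether a cell releases cytochrome c and enters apoptosis. BAX and BAK1 form the pores, BCL2, BCL2L1 and MCL1 hold them and their activators in check, and the BH3-only proteins BBC3 (PUMA), PMAIP1 (NOXA), BCL2L11 (BIM) and BMF bind these guardians or activate the pore formers. BNIP3 is a related protein of the outer membrane best known as a mitophagy receptor induced by low oxygen, and maturing neurons are known to lower their capacity for apoptosis.

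Promoter sequences are shown for the 3 genes whose levels moved most, for both BH3-only genes that rose and for BNIP3, whose level stayed in one range, so that genes of opposite course can be compared. They are the bases before the annotated start, from RefSeq on GRCh38.p14, written 5′ to 3′ on the strand of the gene and ended before the first base of any exon in GENCODE release 29. Capitals mark matches on either strand to CACGTG (the E-box core), TGACG (the core of the cAMP response element) or GTAAACA (a forkhead factor core). BAX and BBC3 come first as pore former and BH3-only gene that fell.
BAX, chr19:48954625-48954814, plus strand: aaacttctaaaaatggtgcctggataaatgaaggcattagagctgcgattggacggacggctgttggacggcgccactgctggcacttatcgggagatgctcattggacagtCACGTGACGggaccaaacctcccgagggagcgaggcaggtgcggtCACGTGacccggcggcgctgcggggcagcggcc
BBC3, chr19:47232767-47232917, minus strand: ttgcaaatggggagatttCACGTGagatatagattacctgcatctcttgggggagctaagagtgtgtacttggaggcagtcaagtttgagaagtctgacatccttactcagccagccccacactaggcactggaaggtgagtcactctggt
BAK1, chr6:33580294-33580526, minus strand: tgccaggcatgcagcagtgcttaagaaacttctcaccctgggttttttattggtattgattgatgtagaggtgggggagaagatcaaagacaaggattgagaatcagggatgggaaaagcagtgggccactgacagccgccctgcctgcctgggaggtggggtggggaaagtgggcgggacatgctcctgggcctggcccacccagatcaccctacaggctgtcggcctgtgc
BCL2L11, chr2:111120664-111120913, plus strand: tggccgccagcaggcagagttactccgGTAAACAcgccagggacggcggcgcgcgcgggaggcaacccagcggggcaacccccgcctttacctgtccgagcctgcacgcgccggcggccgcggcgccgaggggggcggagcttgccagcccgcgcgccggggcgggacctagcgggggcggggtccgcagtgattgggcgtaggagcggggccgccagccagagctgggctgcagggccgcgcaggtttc
BMF, chr15:40108893-40109129, minus strand: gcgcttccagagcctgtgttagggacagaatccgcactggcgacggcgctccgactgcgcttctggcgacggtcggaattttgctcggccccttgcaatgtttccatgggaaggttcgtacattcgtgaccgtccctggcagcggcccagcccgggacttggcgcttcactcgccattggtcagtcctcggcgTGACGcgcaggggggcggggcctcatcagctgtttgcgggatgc
BNIP3, chr10:131982014-131982173, minus strand: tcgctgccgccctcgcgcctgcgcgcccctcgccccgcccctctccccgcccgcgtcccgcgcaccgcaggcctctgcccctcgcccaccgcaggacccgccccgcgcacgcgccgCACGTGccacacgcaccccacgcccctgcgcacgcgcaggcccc

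In BAX the first CACGTG overlapped the single TGACG match, and BBC3 and BNIP3 held 1 CACGTG each. The BAK1 stretch held none of the 3 motifs, the BMF stretch shown held 1 TGACG, and BCL2L11 held 1 GTAAACA in an intron of its longer transcripts. Of the 10 genes 9 had an entry in the RefSeq table. Over the full 250 bases before the start, CACGTG was present in 3 of these 9 genes (BAX, BBC3 and BNIP3) and in 6.34% of all 35116 promoter windows. BAX had 4 CACGTG sites there, a number reached in 5 windows of all 35116 (0.0142%). TGACG was present in 5 of the 9 genes (BAX, BCL2, BCL2L1, BMF and PMAIP1) and in 21.2% of windows, and GTAAACA in BCL2L11 alone and in 2.98% of windows. The counts of members are per gene, with a match in any of its windows, while the shares are per window. BMF and BCL2L1 each had a further window, which held none of the 3 motifs. Genes with CACGTG thus included 2 that fell and 1 with no called change, and genes with TGACG included some that fell and BMF, which rose. These matches describe the letters only.

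The days were compared in each line to describe how RNA levels of the family differed between day 0 and day 18. Transcripts of the pore formers BAX and BAK1 and of the BH3-only gene BBC3 fell most, those of BCL2, PMAIP1 and MCL1 fell less, and the BH3-only genes BCL2L11 and BMF rose. In each of the 3 lines 8 of the 10 genes passed the test (limma, Benjamini-Hochberg adjusted p under 0.05), 6 lower and 2 higher. The background was as wide, since 72.2% of all genes tested passed in WT, 72.9% in C14R and 73% in the deletion line. Lower calls made up 34% of genes in WT, 35% in C14R and 34.4% in the deletion line, and higher calls 38.2%, 37.9% and 38.6%. The same 8 of the 10 genes were called in all 3 lines, and of all genes tested 29.7% were called lower and 33.3% higher in all 3. The count of 8 is thus close to the background, and the size and direction of each gene carry the description. The median log2 change of the 10 genes was -0.31 in WT, -0.38 in C14R and -0.39 in the deletion line, beside 0.03, 0.02 and 0.03 over all genes tested.

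**Figure D1:**
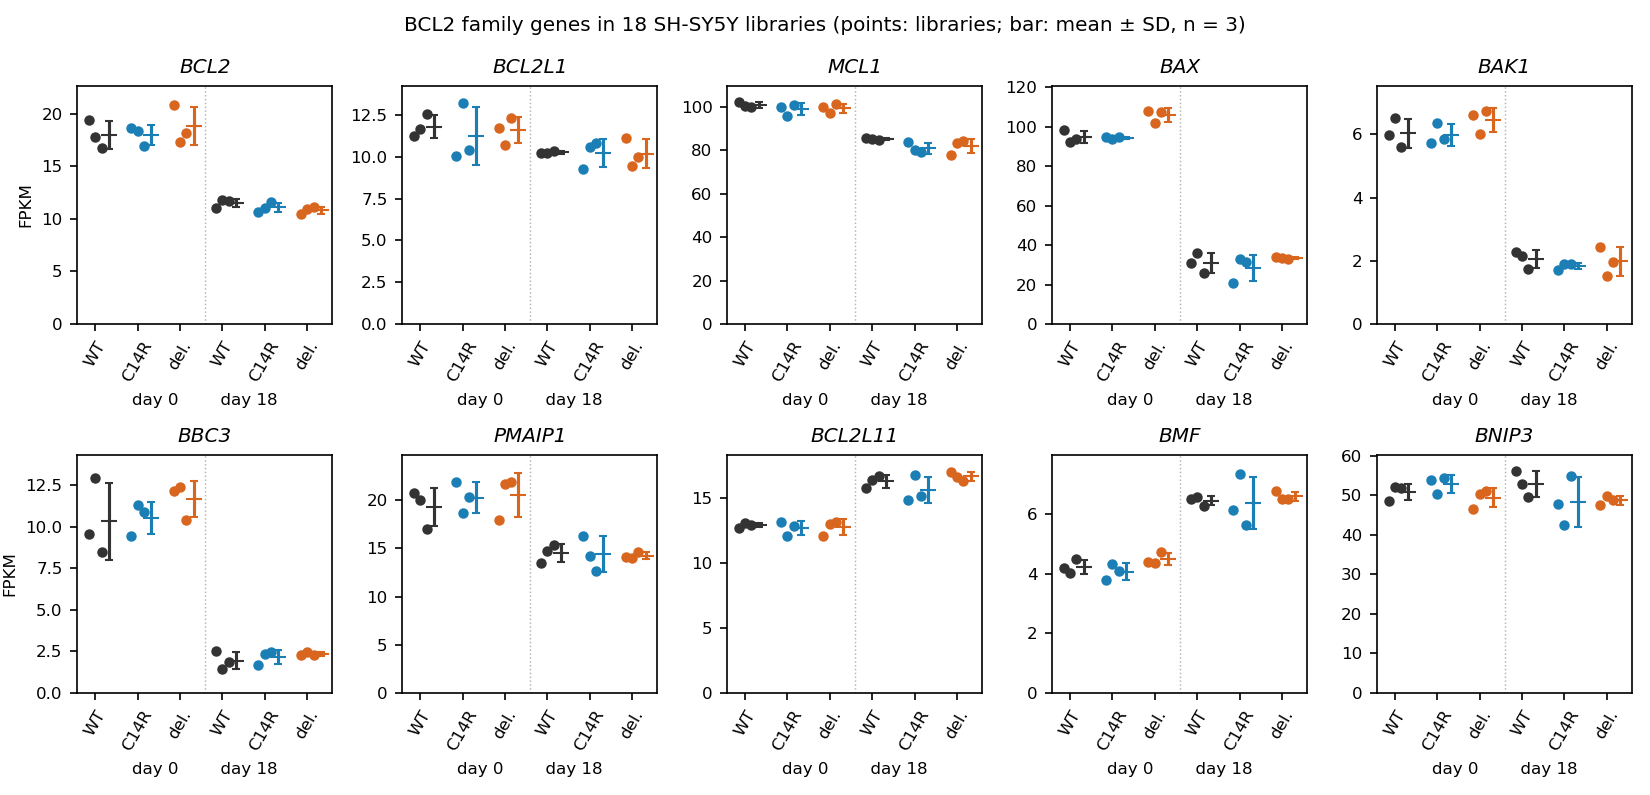
FPKM (vertical axes, from 0) of each gene in the 18 libraries, 3 points for each of WT, C14R and the deletion (del.) at day 0 and day 18, with mean and SD beside them. For 8 genes every day 18 library lies outside the day 0 range, while BCL2L1 and BNIP3 overlap between the days. The share of all genes tested that separate over all lines in this way was not computed. Within a line, 71.8% to 77.7% of them had no overlap between the 3 libraries of each day.

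In bulk RNA, fewer cells of a kind and less RNA per cell cannot be told apart. Summed FPKM of 6 proliferation markers (MKI67, TOP2A, CDK1, CCNB1, CCNA2 and AURKB) fell from 259 to 288 in day 0 libraries to 99.4 to 128 in day 18 libraries. In each line 6 of 6 were lower, where lower calls made up 34% to 35% of all genes tested. Of 9 markers of neuroblastoma cells, 8 were tested, and the summed FPKM of all 9 was 783 to 821 at day 0 and 1039 to 1226 at day 18. DBH, the enzyme that makes noradrenaline, rose by 2.78 on the log2 scale in WT, while TH, the enzyme at the head of the same pathway, lay between 0 and 0.0804 FPKM at day 0 and between 0.289 and 1.02 at day 18. Among 6 markers of other cell types, PTPRC, PECAM1, GFAP and MBP lay under the filter, and the sum of the list, 29.1 to 36.7 FPKM at day 0 and 61.4 to 68.7 at day 18, was nearly all PDGFRA. The part of these shifts in the family's changes was not tested. Libraries of one day had nearly equal upper quartiles over the tested genes (from 22.2 to 22.4 FPKM in early and from 22.6 to 23.2 in late libraries), while the small nucleolar RNA SNORD3A took 6.88% to 58.6% of summed FPKM at day 0 and 1.01% to 15.1% at day 18.

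Among the guardians, BCL2 (chr18:63123346-63320128, minus strand), the founding anti-apoptotic member, fell in every line. Its level at day 0 was 19.4, 17.8 and 16.7 FPKM in WT, 18.7, 18.4 and 16.9 in C14R and 20.8, 17.3 and 18.2 in the deletion line. At day 18 it was 11.03, 11.7 and 11.7 FPKM in WT, 10.7, 11.05 and 11.6 in C14R and 10.5, 10.9 and 11.1 in the deletion line. All 9 later libraries lay below all 9 early ones, with no line standing apart. The log2 change was -0.60 in WT (SE 0.07, limma adjusted p = 2.59e-07), -0.65 in C14R and -0.74 in the deletion line, so that 57.5% to 63.9% of the day 0 mean remained.

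MCL1 (chr1:150574551-150579738, minus strand), a guardian whose protein is short-lived, was the most abundant of the 10 genes in 5 of the 6 groups on the FPKM scale. Day 0 libraries held 102, 100.2 and 99.8 FPKM in WT, 100.1, 96.0 and 101 in C14R and 100.02, 97.0 and 101 in the deletion line. Day 18 libraries held 85.5, 85.0 and 84.9 FPKM in WT, 83.7, 80.0 and 79.0 in C14R and 78.0, 83.3 and 84.2 in the deletion line. Replicates were close and the days did not overlap. The difference was small, with a log2 change in WT of -0.24 (SE 0.04, limma adjusted p = 1.2e-05), -0.29 in C14R and -0.28 in the deletion line. Leaving out small RNA genes and rescaling moved it to -0.03 in WT (adjusted p = 0.43) and -0.06 in the deletion line (adjusted p = 0.166), below the threshold, while C14R kept its call at -0.11.

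BCL2L1 (chr20:31664452-31723989, minus strand), which encodes the guardian BCL-xL and by splicing also a pro-apoptotic short form, did not pass the test in any line. It held 11.2, 11.7 and 12.6 FPKM in WT, 10.1, 13.3 and 10.4 in C14R and 11.8, 10.7 and 12.3 in the deletion line at day 0. Later values were 10.2, 10.2 and 10.4 FPKM in WT, 9.28, 10.6 and 10.8 in C14R and 11.1, 9.45 and 10.0 in the deletion line. The days were apart in WT and overlapped in both variants. Log2 changes were -0.18 in WT (95% interval -0.37 to -9.94e-05, limma adjusted p = 0.0673), -0.12 in C14R (adjusted p = 0.236) and -0.17 in the deletion line (adjusted p = 0.0853). The FPKM is one value per gene, so the splice forms of BCL2L1, MCL1 and BCL2L11 were not separated, and ABALON, an antisense transcript over 1903 bp of BCL2L1 with up to 9.43 FPKM, could share reads with it if strand was not used.

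BAX (chr19:48954815-48961798, plus strand), the cytosolic pore former that moves to mitochondria on activation, had one of the widest drops. At day 0 the level was 98.2, 92.3 and 93.9 FPKM in WT, 94.6, 94.0 and 94.7 in C14R and 108, 102 and 108 in the deletion line. At day 18 it was 30.9, 36.1 and 25.8 FPKM in WT, 20.8, 33.1 and 31.3 in C14R and 34.0, 33.4 and 33.2 in the deletion line. Group means at day 18 were 30.1% to 32.7% of the early ones, with C14R replicate 1 the lowest of all 18. The log2 change was -1.60 in WT (SE 0.12, limma adjusted p = 3.21e-09), -1.73 in C14R and -1.63 in the deletion line. Without C14R replicate 1 of day 18 the change in C14R was -1.52.

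BAK1 (chr6:33572547-33580293, minus strand), the pore former that resides in the mitochondrial membrane, fell in parallel at a lower level. Values at day 0 were 5.98, 6.52 and 5.61 FPKM in WT, 5.73, 6.37 and 5.87 in C14R and 6.61, 6.03 and 6.74 in the deletion line. Values at day 18 were 2.28, 2.14 and 1.74 FPKM in WT, 1.71, 1.90 and 1.90 in C14R and 2.45, 1.53 and 1.96 in the deletion line. All later libraries lay below all early ones. The log2 change was -1.21 in WT (SE 0.10, limma adjusted p = 6.74e-09), -1.30 in C14R and -1.33 in the deletion line. On this log2(FPKM + 1) scale the drop of a low gene is understated, and the group means at day 18 were 34.0%, 30.6% and 30.7% of those at day 0.

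Among BH3-only genes, BBC3 (chr19:47220822-47232766, minus strand), which encodes the activator PUMA, had the largest log2 change of the 10 genes in every line. It stood at 9.57, 12.9 and 8.47 FPKM in WT, 9.45, 11.3 and 10.9 in C14R and 12.2, 12.4 and 10.4 in the deletion line at day 0. It stood at 2.50, 1.45 and 1.88 FPKM in WT, 1.68, 2.33 and 2.47 in C14R and 2.28, 2.46 and 2.30 in the deletion line at day 18. The highest later library lay far below the lowest early one. The log2 change was -1.94 in WT (SE 0.14, limma adjusted p = 1.33e-09), -1.88 in C14R and -1.92 in the deletion line, and 18.8% to 20.5% of the early mean remained. Of all genes tested, 1.24% had a lower change than BBC3 in WT, 2.38% a lower one than BAX and 4.63% a lower one than BAK1.

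PMAIP1 (chr18:59899948-59904306, plus strand), whose product NOXA binds mainly MCL1, fell less than BBC3. It held 20.8, 20.0 and 17.0 FPKM in WT, 21.8, 18.7 and 20.3 in C14R and 17.9, 21.7 and 21.9 in the deletion line at day 0. It held 13.5, 14.7 and 15.3 FPKM in WT, 16.3, 14.3 and 12.6 in C14R and 14.1, 13.98 and 14.6 in the deletion line at day 18. The days did not overlap, although WT replicate 3 of day 0 and C14R replicate 1 of day 18 came close. Its log2 change was -0.38 in WT (SE 0.09, limma adjusted p = 0.00138), -0.47 in C14R and -0.49 in the deletion line. With small RNA genes left out the WT change was -0.19 (adjusted p = 0.0868), below the threshold, and the calls in C14R and the deletion line remained.

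BCL2L11 (chr2:111119378-111168447, plus strand), which encodes BIM, a BH3-only protein known for its part in the death of neurons deprived of trophic factor, rose. Levels at day 0 were 12.7, 13.1 and 13.0 FPKM in WT, 13.1, 12.1 and 12.8 in C14R and 12.1, 13.1 and 13.2 in the deletion line. Levels at day 18 were 15.8, 16.4 and 16.7 FPKM in WT, 14.9, 16.8 and 15.2 in C14R and 17.1, 16.7 and 16.3 in the deletion line. Every later library was above every early one. This was a log2 change of 0.31 in WT (SE 0.05, limma adjusted p = 3.04e-05), 0.28 in C14R and 0.36 in the deletion line. The noncoding gene MIR4435-2HG spans all 49070 bp of BCL2L11 on the other strand and went the other way, from a mean of 16.0 to 1.67 FPKM in WT. Whether strand was used in counting is not given in the sources used here.

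BMF (chr15:40087890-40108892, minus strand), a BH3-only protein that binds a dynein light chain, rose as well. It had 4.17, 4.02 and 4.48 FPKM in WT, 3.77, 4.34 and 4.08 in C14R and 4.38, 4.37 and 4.71 in the deletion line at day 0. It had 6.50, 6.57 and 6.28 FPKM in WT, 6.14, 7.35 and 5.63 in C14R and 6.78, 6.51 and 6.50 in the deletion line at day 18. The highest and the lowest later values were both in C14R, and all lay above the early ones. In log2 terms the rise was 0.51 in WT (SE 0.08, limma adjusted p = 9.58e-06), 0.54 in C14R and 0.47 in the deletion line.

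BNIP3 (chr10:131966455-131982013, minus strand) passed the test in no line. Its level was 48.5, 52.2 and 51.8 FPKM in WT, 53.7, 50.2 and 54.4 in C14R and 46.5, 50.4 and 51.1 in the deletion line at day 0. The later level was 56.0, 52.8 and 49.5 FPKM in WT, 47.7, 42.4 and 54.7 in C14R and 47.5, 49.9 and 48.7 in the deletion line. The days overlapped in each line, the constructs overlapped on each day, and the widest spread was in C14R at day 18. Log2 changes were 0.05 in WT (95% interval -0.10 to 0.20, limma adjusted p = 0.512), -0.13 in C14R (adjusted p = 0.0989) and -0.02 in the deletion line (adjusted p = 0.839). With small RNA genes left out it rose by 0.26 in WT (limma adjusted p = 0.00195), beside a median of 0.21 over all genes. In the deletion line it turned to a rise of 0.20 (adjusted p = 0.0115), beside a median of 0.23. Its group means spanned 0.13 on the log2 scale, and 4.66% of the genes tested had a smaller span, against spans of 2.12 for BBC3, 1.89 for BAX and 1.40 for BAK1.

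**Figure D2:**
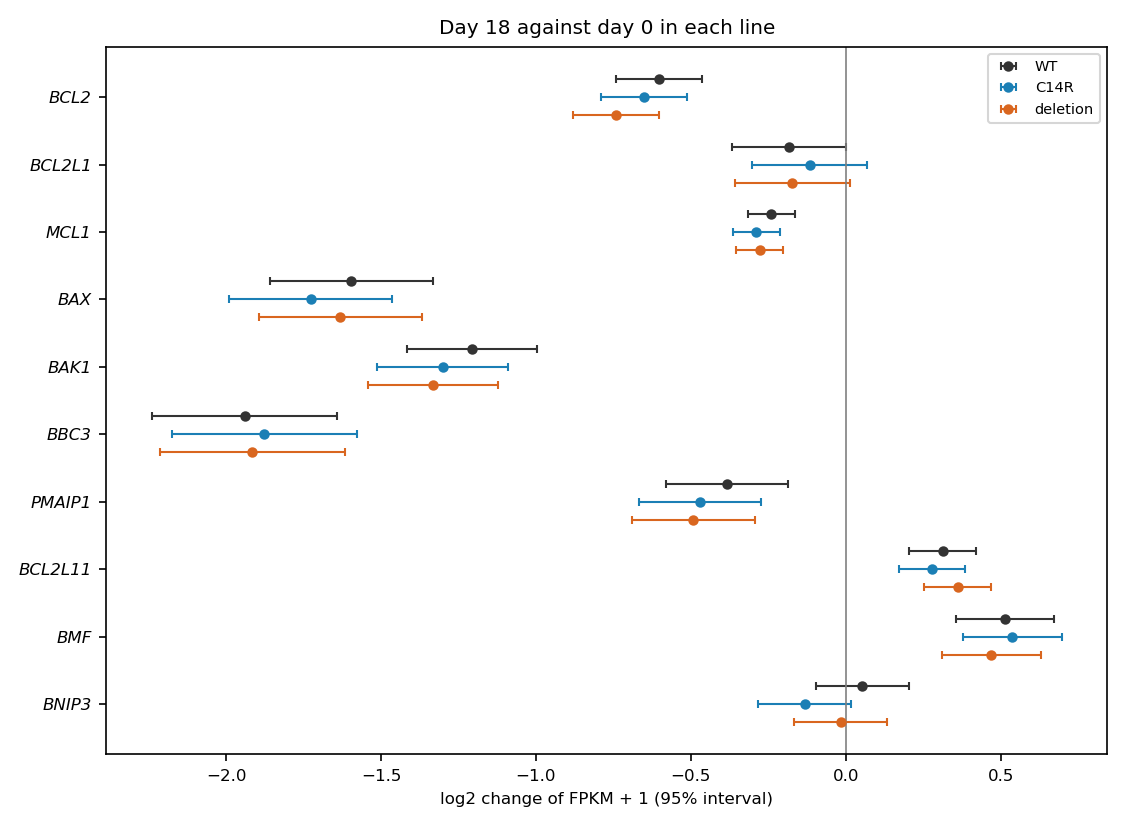
Log2 change of FPKM + 1 from day 0 to day 18 (horizontal axis) for each gene, with 95% limma intervals, in WT, C14R and the deletion line. BBC3, BAX and BAK1 lie farthest below 0, BCL2L11 and BMF lie above 0 in all 3 lines, and the intervals of the lines overlap for every gene.

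The leave-out of small RNA genes shifts all genes together. It moved the median change over all genes from 0.03 to 0.21 in WT, from 0.02 to 0.18 in C14R and from 0.03 to 0.23 in the deletion line. The share of higher calls among called genes went from 52.9% to 68.7% in WT, from 52.0% to 66.4% in C14R and from 52.8% to 69.5% in the deletion line. Relative to that median the 6 lower genes stayed below and BCL2L11 and BMF stayed above. Without overlap between the 3 libraries of each day were 9 of the 10 genes in WT, where 75.7% of all genes had none, 8 in C14R, where 71.8% had none, and 8 in the deletion line, where 77.7% had none.

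On the FPKM scale, which is per length and allows levels of different genes to be set side by side, the order within the family changed. In WT at day 0 it ran MCL1, BAX, BNIP3, PMAIP1, BCL2, BCL2L11, BCL2L1, BBC3, BAK1 and BMF. PMAIP1 and BCL2 overlapped between libraries, as did BCL2L1 and BBC3, and the other neighbours did not. In WT at day 18 it ran MCL1, BNIP3, BAX, BCL2L11, PMAIP1, BCL2, BCL2L1, BMF, BAK1 and BBC3, with overlap between BAK1 and BBC3 only. BAX thus went from just under MCL1 to below BNIP3, and BBC3 went to the last place.

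Ratios of FPKM between members within a library describe the same course and carry no test. BAX over BCL2 ranged from 5.05 to 5.92 (median 5.20) in day 0 libraries and from 1.94 to 3.26 (median 2.99) in day 18 libraries. BAX over MCL1 went from 0.922 to 1.08 down to 0.248 to 0.436, so the pore former was level with this guardian only at day 0. At day 0 the deletion libraries stood apart in BAX over MCL1, at 1.08, 1.05 and 1.07 against 0.922 to 0.979 in WT and C14R, and at day 18 the lines overlapped. BAX alone was also apart there and did not pass the test (limma adjusted p = 0.854 against WT and 0.666 against C14R). Of all genes tested 18% and 21.3% had no overlap in these comparisons, and no share was computed for ratios. BAX over BAK1 stayed in one range, 14.2 to 16.9 at day 0 and 12.1 to 21.8 at day 18.

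The 3 guardians together summed to 125 to 133 FPKM at day 0 and 99.6 to 107 at day 18, and both pore formers to 98.8 to 115 and 22.5 to 38.2. Their ratio rose from 1.15 to 1.31 in the early libraries to 2.73 to 4.61 in the late ones, with the highest value in C14R replicate 1. At day 0 this ratio was 1.15, 1.16 and 1.15 in the deletion libraries and 1.27 to 1.31 in WT and C14R. It includes BAX, which was apart there without passing the test. Among the guardians MCL1 made up 75.2% to 78.7% early and 77.9% to 80.7% late, and BCL2 over BCL2L1 fell from 1.33 to 1.86 to 0.938 to 1.15.

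The BH3-only genes among the 10 changed more in their mix than in their sum, which leaves out BID and BAD. The sum of BBC3, PMAIP1, BCL2L11 and BMF was 43.0 to 51.5 FPKM at day 0 and 35.9 to 40.7 at day 18. BBC3 made up 19.6% to 26.1% of it early and 3.70% to 6.87% late, while BCL2L11 went from 25.3% to 30.2% up to 38.2% to 42.4%. PMAIP1 held 38.5% to 45.3% early and 35.0% to 41.8% late. BCL2L11 over BBC3 was 0.994 to 1.53 in early and 6.16 to 11.3 in late libraries, the widest spread being among the WT replicates.

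**Figure D3:**
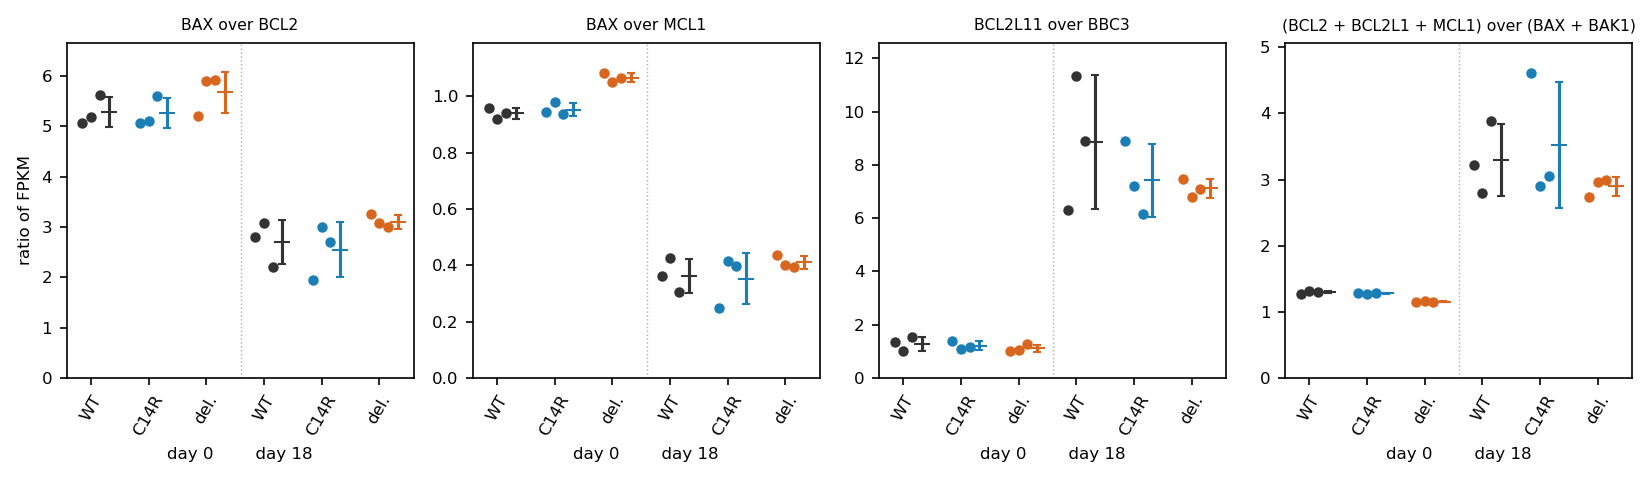
Ratios of FPKM within a library (vertical axes, from 0), 3 points per group with mean and SD, for BAX over BCL2, BAX over MCL1, BCL2L11 over BBC3 and the summed guardians over the summed pore formers. In all 4 panels the day 0 and day 18 libraries do not overlap, and at day 18 the 3 lines overlap.

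The constructs were compared within each day to ask whether the ZNHIT3 variants differed from WT in the family. As a check of the delivered gene, ZNHIT3 had means of 538, 424 and 302.5 FPKM in WT, C14R and deletion libraries at day 0 and of 1153, 653 and 301.5 at day 18. None of the 10 genes passed the test between any pair of constructs at either day. Over all genes tested, 0% passed for C14R against WT at day 0 and 0.0363% at day 18, 0.029% for the deletion against WT at day 0 and 0.0725% at day 18, and 0.058% and 0.029% for C14R against the deletion. A count of 0 among 10 is thus at the background. The 60 log2 changes of the 10 genes ranged from -0.26 to 0.20, the smallest unadjusted limma p was 0.0522 (BAX, C14R against the deletion at day 18), the smallest adjusted p was 0.448, and 0 had an unadjusted p under 0.05.

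Half-widths of the 95% limma intervals, which are not adjusted for the number of genes, ran from 0.08 for MCL1 to 0.30 for BBC3, and no bound went beyond -0.52 or 0.50. For MCL1, C14R held 83.7, 80.0 and 79.0 FPKM at day 18 against 85.5, 85.0 and 84.9 in WT, all lower, with a log2 change of -0.07 (95% interval -0.15 to 0.0034, limma adjusted p = 0.479). The deletion line was also lower throughout, at -0.06 (adjusted p = 0.581).

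BAX was higher in all 3 deletion libraries than in all WT libraries at day 0, with 106 ± 3.4 against 94.8 ± 3.0 FPKM (SD, n = 3) and a log2 change of 0.16 (limma adjusted p = 0.854). C14R lay below the deletion line for BAX at day 0 (-0.17) and at day 18 (-0.26, 95% interval -0.52 to 0.0028), and for BMF at day 0 (-0.12), in all libraries each time. The day 18 value of BAX leaned on C14R replicate 1, with 20.8 FPKM against 33.1 and 31.3 in the other C14R libraries. The deletion libraries held 33.2 to 34.0 FPKM. With those of MCL1, 6 comparisons of the 60 were without overlap. The share of all genes without overlap was 9.47% and 11.1% for C14R against WT at day 0 and 18, 18% and 18.9% for the deletion against WT, and 21.3% and 12.2% for C14R against the deletion, so 6 of 60 is near the background.

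**Figure D4:**
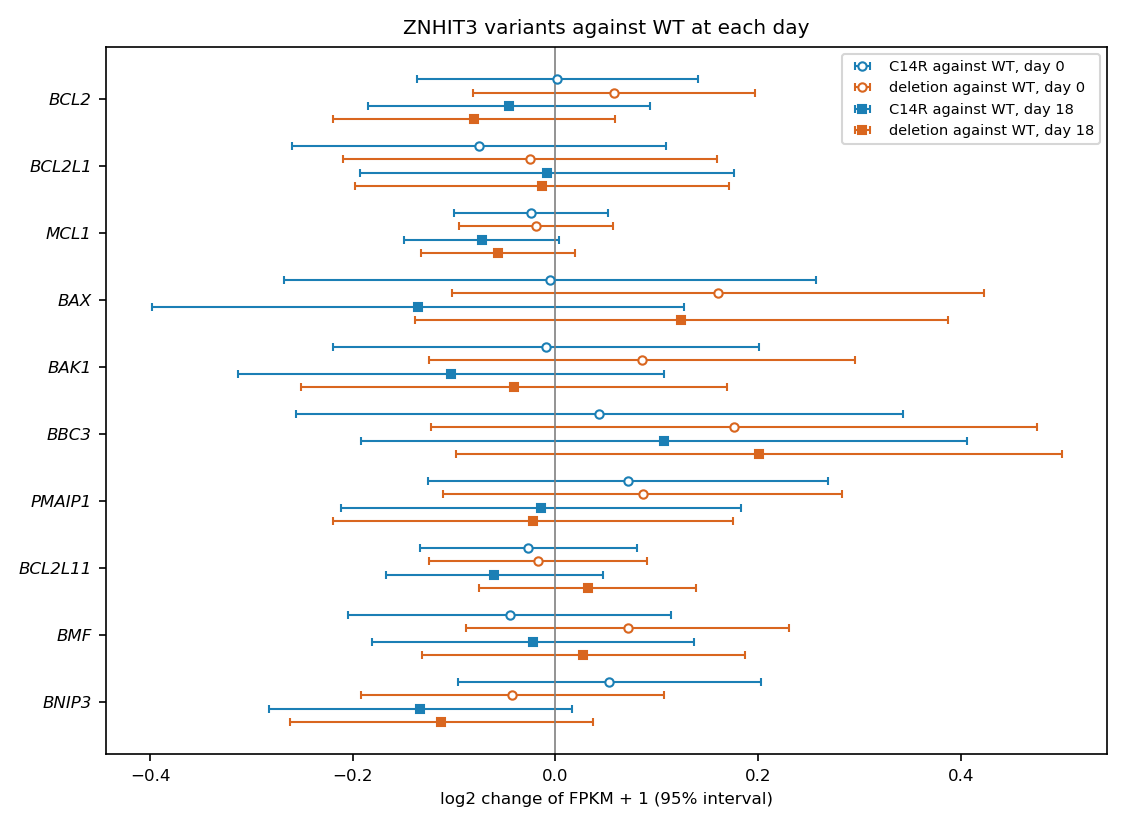
Log2 change of FPKM + 1 against WT (horizontal axis) for each gene, with 95% limma intervals, for C14R and the deletion at day 0 (open circles) and day 18 (filled squares). All 40 intervals include 0, the narrowest are those of MCL1 and the widest those of BBC3.

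The change from day 0 to day 18 was also compared between lines through the interaction of construct and day. No gene of the 10 passed for C14R, where 0% of all genes did, or for the deletion, where 0.0145% did. The 20 interaction terms ranged from -0.19 to 0.07, and the smallest unadjusted limma p was 0.0801 for BNIP3 in C14R, with a smallest adjusted p of 0.83. For BBC3 the interval of the difference ran from -0.36 to 0.49 in C14R and from -0.40 to 0.45 in the deletion line. For BAX it ran from -0.50 to 0.24 and from -0.41 to 0.34.

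The other BCL2 family genes were taken from a list of 16, of which 9 were tested. In WT, BID, the BH3-only protein cut by caspase-8, fell by 1.14 on the log2 scale (SE 0.07, limma adjusted p = 5.81e-11), from 18.3 to 7.77 FPKM. BAD, a BH3-only protein held inactive by survival kinases, rose by 0.51 (adjusted p = 0.00122), and BNIP3L, the mitophagy receptor NIX, rose by 0.60 (adjusted p = 6.15e-09), from 43.2 to 65.8 FPKM. BNIP3L thus passed the test where its relative BNIP3 did not. BCL2L2, BOK, BNIP1, BNIP2, BCL2L12 and BCL2L13 did not pass in WT. BCL2A1, BCL2L10, BIK, HRK, BNIPL, BCL2L14 and BCL2L15 lay under the filter, and HRK, a BH3-only gene of neurons, ran from 0 to 0.328 FPKM at day 0 and from 0.365 to 1.31 at day 18.

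Around the family, 72 symbols of pathway genes and known regulators were listed, with MARCH5 also under its newer symbol MARCHF5, and 67 genes were tested. In WT 21 of them rose, 29 fell and 17 did not pass, in C14R 21 rose and 28 fell, and in the deletion line 23 rose and 30 fell. Over all genes tested, 38.2% rose and 34% fell in WT, 37.9% and 35% in C14R, and 38.6% and 34.4% in the deletion line. The median change of the 67 genes in WT was -0.08, beside 0.03 over all genes. With small RNA genes left out the split was 31 higher and 18 lower of 66 in WT, 31 and 18 in C14R, and 32 and 21 in the deletion line. Of all 13750 genes tested under that setting, 7057 were higher and 3218 lower in WT. The genes named next as rising or falling in WT kept their direction and call there under each alternative in which they were tested. ENDOG, FAS, TNFRSF10A and ADM were not tested with a minimum mean of 5 FPKM. With a pseudocount of 0.1 the WT log2 change was -1.88 for ENDOG, -2.93 for FAS and -2.77 for TNFRSF10A. It was 0.55 for XIAP with small RNA genes left out and 0.82 for YWHAZ with quantile normalization.

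Downstream of the pores, among 12 genes of the apoptosome and caspases 2 rose and 7 fell in WT. Over all genes tested, 38.2% rose and 34% fell in WT. CASP9, the initiator caspase that the apoptosome activates, rose from 4.14 to 9.28 FPKM, or by 1.01 on the log2 scale (SE 0.08, limma adjusted p = 2.43e-09). ENDOG, a nuclease of the mitochondrial intermembrane space, fell by 1.02, and CASP2, an initiator caspase, fell by 0.84. CYCS and APAF1, which encode cytochrome c and the scaffold of the apoptosome, had log2 changes of 0.04 and -0.00075 and did not pass.

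Among 5 tested inhibitors of apoptosis, BIRC5 (survivin, which also serves in mitosis) fell by 1.91, while BIRC2 rose by 0.51 and XIAP, the direct caspase inhibitor, by 0.35. Of 9 partners at the membrane and cytoskeleton 3 rose and 4 fell in WT, where 38.2% of all genes tested rose and 34% fell. PHB2, a prohibitin of the inner membrane, fell by 0.91, VDAC1, a channel of the outer membrane, by 0.70, and YWHAZ, a 14-3-3 protein that holds BAD in the cytosol, rose by 0.52. Of 5 tested genes that govern MCL1 protein turnover 2 rose and 0 fell in WT, BTRC, a ubiquitin ligase subunit, by 0.97 and the deubiquitinase USP9X by 0.63.

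On the death receptor side 4 of 9 genes fell and 1 rose in WT, and 6 fell and 1 rose in each variant. Over all genes tested, 34% fell and 38.2% rose in WT, 35% and 37.9% in C14R, and 34.4% and 38.6% in the deletion line. FAS fell from 4.26 to 0.515 FPKM in WT (log2 change -1.81, limma adjusted p = 1.3e-09), and the TRAIL receptor genes TNFRSF10A and TNFRSF10B fell by 1.35 and 1.05.

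Of 16 transcriptional regulators of the family 9 rose and 7 fell in WT, where 38.2% of all genes tested rose and 34% fell. MYC, a growth-promoting factor, fell from 20.8 to 0.451 FPKM (log2 change -3.91, limma adjusted p = 7.17e-16). DDIT3, the stress factor CHOP, rose by 1.39. DDIT3 was the one listed gene that passed between constructs, with 11.5, 14.3 and 12.1 FPKM in C14R against 24.8, 20.5 and 20.2 in WT at day 18. All C14R libraries were lower, by -0.74 on the log2 scale (SE 0.09, limma adjusted p = 0.00114). A fit of only those 6 libraries lost the call (adjusted p = 0.341).

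For BNIP3 the listed company was 12 genes induced by low oxygen, of which 11 were tested. In WT 2 rose and 5 fell, beside 38.2% and 34% of all genes tested. EGLN3, a prolyl hydroxylase, fell by 1.89 and the peptide hormone gene ADM by 1.81, while NDRG1 rose by 1.29. The summed FPKM of the list ranged from 108 to 117 in early and from 89.6 to 106 in late libraries. BNIP3 itself had no called change.

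**Figure D5:**
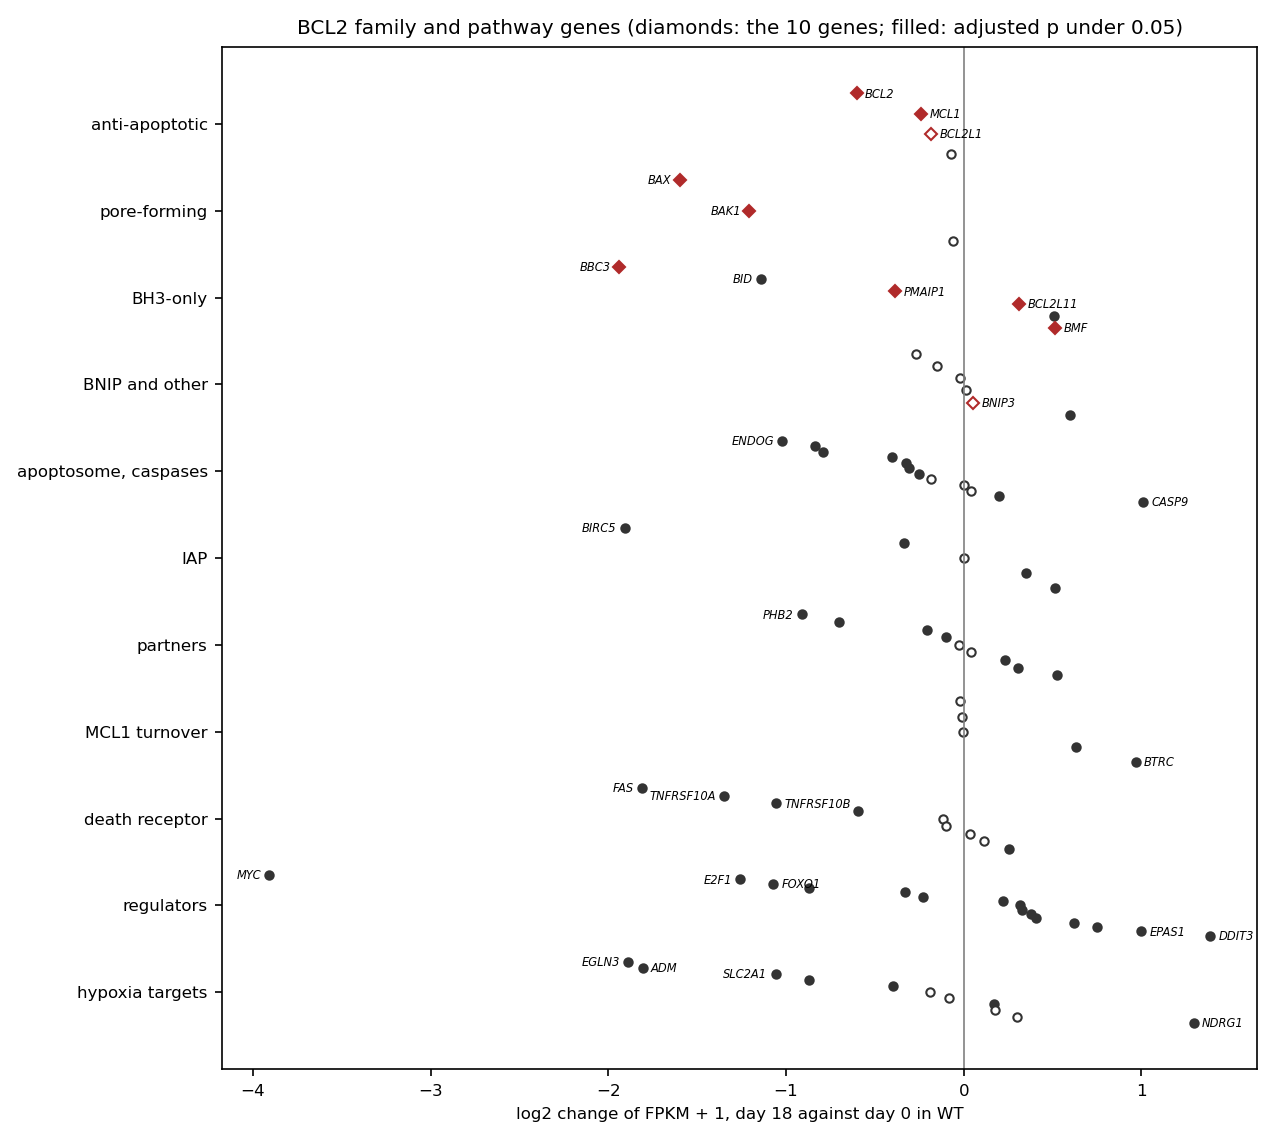
Log2 change of FPKM + 1 from day 0 to day 18 in WT (horizontal axis) for tested genes of the family and of 7 pathway lists (1 gene is not drawn), with diamonds for the 10 genes and filled symbols for adjusted p under 0.05. BBC3, BAX and BAK1 lie on the lower side with BIRC5, FAS and MYC, and BMF and BCL2L11 on the upper side with CASP9 and DDIT3.

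The genes whose course was most like those of the 3 widest members were found by Pearson correlation of log2(FPKM + 1) over the 18 libraries, as a description. For BBC3 they included IMPDH1 (r = 0.9935) and EIF3B (0.9922), and 1717 of 13784 genes had r over 0.95. For BAX they included GCN1 (0.9949) and PTBP1 (0.9944), and for BAK1 they were TGFBR2 (0.994), ZNF385A (0.993) and MTA2 (0.9919). The days form separate clusters, the points share library and medium, and every such r mainly reports that split.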

How the data were processed

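RNA from 18 libraries was sequenced after depletion of ribosomal RNA (Ribo-Zero, NEBNext Ultra), per the labels' protocols. The authors deposited one table of FPKM per gene symbol and library, and the submitters' processing notes name TopHat2, STAR, Cufflinks 2.2.1 and hg38. The annotation, use of strand and any scaling between libraries are not given in the sources used here.

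Samples were grouped by construct and day from their titles. Tests used log2(FPKM + 1), a pseudocount of 1, on the 13785 of 26372 genes with a mean of at least 1 FPKM; 4960 genes were listed at 0 in every library. This scale understates changes of low genes. Means of the 6 groups were fitted over all 18 libraries with limma 3.58.1 in R 4.3.3, with a variance trend, for 11 comparisons. P-values were adjusted over all genes tested by the Benjamini-Hochberg method, with a threshold of 0.05. The script was tested on simulated data.

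The 10 genes, the gene lists, the markers and the tests were chosen with earlier results of these data known. By rule, the text names the 10 genes, in each list up to 3 genes with the largest called change in WT whose libraries do not overlap between the days, listed genes called between constructs, the 3 most correlated genes for the 3 widest members, and ZNHIT3. Of the genes so selected, some are not reported here. Other genes named as not called, under the filter or in the wider family were chosen after their values were seen.

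FPKM hold no counts, so depth is unknown and no counting interval is given. Steps set by single fragments put the shallowest library at 69.9% of the deepest at day 0 and at 82.0% at day 18. Each setting was changed in turn: a pseudocount of 0.1, all genes without a filter, a mean of at least 5 FPKM, median-of-ratios scaling, quantile normalization, 2411 small RNA genes left out with rescaling, the replicate number as a block, array weights, no variance trend, only the libraries compared and each of the 18 libraries left out in turn. Leaving out the day 18 library C14R replicate 1 also where a comparison does not involve it was added after seeing the data. Gene positions come from GENCODE release 29 on GRCh38.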

Additional observations from a re-analysis of the deposited data

How the results depend on the processing

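The count of 8 called genes from day 0 to day 18 ranged from 7 to 9 in each line over all alternatives, leave-outs included, and the count of 0 between constructs and in the interactions stayed 0 under each. Calls over all genes for C14R against WT at day 18 were 2 higher and 3 lower in the main fit. They were 103 and 102 with array weights, 72 and 54 without C14R replicate 2 of day 18, and at most 6 and 5 under the other alternatives. Array weights ran from 0.161 for C14R replicate 1 of day 18 to 2.55 for C14R replicate 3 of day 18. BAX, BAK1, BBC3, BCL2, BCL2L11 and BMF kept direction and call in all 3 lines wherever they were tested. With small RNA genes left out, BNIP3 turned in the deletion line from -0.02 to 0.20 (limma adjusted p = 0.0115), MCL1 lost its call in WT and the deletion line, and PMAIP1 lost it in WT. That setting moved the median over all genes from 0.03 to 0.23 in the deletion line and from 0.03 to 0.21 in WT. BCL2L1 passed in WT with median-of-ratios scaling (-0.23, adjusted p = 0.0224), quantile normalization, array weights and only the libraries compared, and in the deletion line with the first 3 of these and without deletion replicate 1 of day 18 (adjusted p = 0.0393). BNIP3 passed in C14R with median-of-ratios scaling (-0.17, adjusted p = 0.0368), quantile normalization (adjusted p = 0.0428) and without C14R replicate 3 of day 18 (-0.23, adjusted p = 0.00393). The cause was not tested. Replicate numbers did not pair the libraries: same-number correlations of deviations ran from -0.36 to 0.17, 4 of 27 pairs exceeded 0.1, and in 9 of the 27 the library of the first group correlated best with its own number in the second. With the replicate block 8 genes were called in each line and 0 in the other comparisons. With 3 libraries a group, the unadjusted 95% interval half-widths between constructs were 0.08 to 0.30 on the log2 scale. A difference of that size need not pass after adjustment over all genes. BAX differed by -0.26 between C14R and the deletion line at day 18, with C14R replicate 1 far below the other C14R libraries. Its unadjusted limma p was 0.0522 and its adjusted p 0.448.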
